A study of Mus musculus with 27 samples.

Results

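Ileal gene expression at the top dose of TCDD was compared with that at the dose below it. The comparison took the 3 mice labelled 30 µg/kg (mice 65, 67 and 68) and the 3 labelled 10 µg/kg (mice 57, 58 and 59), 6 of 27 mice in the series, and asked which transcripts moved only between these doses. All 27 were male C57BL/6 mice killed at postnatal day 56 after gavage with sesame oil vehicle or 1 of 8 TCDD doses, the lowest 0.01 µg/kg and the highest 30 µg/kg; gavage was repeated at intervals of 4 days over a 28 day period. The 6 mice therefore differed in their labels by dose alone, and both groups carried TCDD. The study fasted the mice for 6 h before they were killed. RNA-Seq libraries came from epithelium scraped off the distal ileum. The mice were co-housed and the cage of each is not known here, so effects of cage and of dose cannot be told apart. The 16 index sequences that tag the libraries were each used up to 2 times across the series, and all 6 libraries carried the second use of their index. The groups of 3 are small, and each test below treats mice as independent.

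TCDD is a persistent dioxin that binds the aryl hydrocarbon receptor (AhR), a transcription factor that then pairs with ARNT on DNA sites holding the core GCGTG and induces genes such as *Cyp1a1*. The ileal epithelium is a single cell layer that digests and absorbs food, takes up bile acids, and meets gut microbes with oxidants, antimicrobial proteins and interferon responses. Its cells also hold enzymes of fat oxidation, ketone and glucose production, which in many tissues respond to fasting and to glucocorticoids.

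Reads counted on genes came to 12.95 to 14.92 M per mouse at 10 µg/kg and 13.63 to 14.63 M at 30 µg/kg. The 10 enterocyte markers summed to 14800 to 18800 CPM (reads per M counted reads, scaled by edgeR's TMM) at 10 µg/kg and 12800 to 21500 CPM at 30 µg/kg, with 0 of them absent. Markers of smooth muscle ran from 76.0 to 453 CPM at 10 µg/kg and from 57.6 to 409 CPM at 30 µg/kg. The 5 red blood cell markers summed to at most 1.63 CPM. Mouse 65 stood apart from mice 67 and 68 on several measures. Its smooth muscle markers summed to 409 CPM, against 106 and 57.6 CPM in the other two. Reads from the mitochondrial genome were 3.155% of its gene counts, against 2.082% and 1.944%. The first principal component of all 27 mice held 24.83% of the variance and the second 13.11%. On the first, mouse 65 lay at 23.6, beside mouse 68 at 24.9, and mouse 67 lay at 36.3. Mice 57, 58 and 59 lay lower, at 18.5, 15.5 and 21.5. On the second, mouse 65 lay at -22.8, against 14.2 and 15.1 in mice 67 and 68. Mice 57 and 58 were near it at -15.1 and -10.3, and mouse 59 was at 6.4. The values of mouse 65 are therefore given apart where a result turns on them. In scrapings, fewer cells of a type and less RNA per cell cannot be told apart.

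Of 16741 genes tested with edgeR in 1 fit of all 27 mice, 57 passed an adjusted p of 0.05 and a fold of 1.5, which is 0.34% of those tested. Of the 57, 33 were higher at 30 µg/kg (0.197% of genes tested) and 24 were lower (0.143%). With scaling by library size alone, 21 were higher and 45 lower, so the balance of directions depended on the scaling. The 3 mice at 30 µg/kg did not overlap the 3 at 10 µg/kg in 51 of the 57, against 10.6% of all genes tested. In 33 of the 57, 16 higher and 17 lower, the 3 mice at 30 µg/kg lay outside the range of all 24 other mice, against 1.83% of all genes tested. Both counts use the mice that decided the calls, so they describe the called genes and are no support for them. Mouse 65 was the one nearest to the 10 µg/kg mice in 29 of the 33 higher genes and 15 of the 24 lower ones. Without it, 877 of 17063 genes passed (5.14%), 399 higher (2.34%) and 478 lower (2.8%), and all 57 kept their call and direction. Without mouse 67 there were 3 calls, and without mouse 68 there were 2. The calls also rest on the spread pooled over all 27 mice: a fit of the 6 mice alone called 0 genes (965 at an unadjusted p under 0.05, lowest adjusted p 0.109, edgeR), while DESeq2 on the 27 mice called 152.

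**Figure D1:**
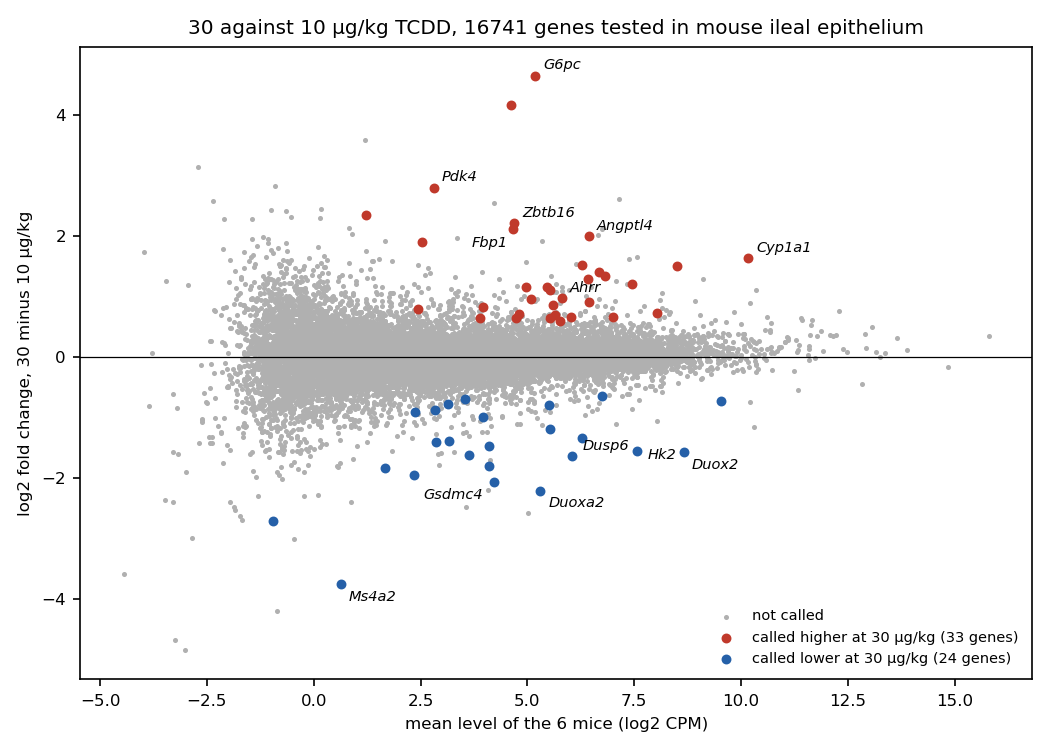
Log2 fold change of each gene (y axis, 30 minus 10 µg/kg, edgeR) against its mean level in the 6 mice (x axis, log2 CPM). Each point is a gene; red and blue points are the 33 genes called higher and the 24 called lower, and genes with no count in the 6 mice are not drawn. *G6pc* rose most among the called genes, *Ms4a2* fell most, and *Cyp1a1* is the most abundant called gene.

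A pair of AhR target genes rose further at the top dose. *Cyp1a1* (chr9:57687928-57703824, + strand, GRCm38), which encodes the cytochrome P450 that is the classic AhR marker, stood at 516, 529 and 647 CPM in mice 57, 58 and 59. At 30 µg/kg it reached 1060, 1880 and 2280 CPM in mice 65, 67 and 68, and every one of these lay above every mouse at 10 µg/kg. The rise was 3.08-fold (log2 fold change 1.63, SE 0.37, adjusted p = 0.0473, edgeR). Vehicle mice averaged 0.117 CPM ± 0.107 (SD, n = 3), and the highest mouse at any dose below 10 µg/kg had 64.7 CPM. *Ahrr* (chr13:74211118-74292331, - strand), the AhR repressor and itself an AhR target, had 43.7, 39.1 and 31.2 CPM at 10 µg/kg. It had 88.9, 55.7 and 77.8 CPM at 30 µg/kg, with mouse 65 the highest. It rose 1.95-fold (log2 fold change 0.97, SE 0.13) with the lowest adjusted p of the comparison, 0.000871 (edgeR), shared with *Agpat3*.

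The promoters of both genes hold the AhR core. They are shown because they are the AhR targets that rose between the doses; the 250 bases before the RefSeq start (GRCm38.p6) are given 5′ to 3′ on the gene's strand, with each GCGTG, on either strand, in capitals.
Cyp1a1, chr9:57697363-57697612, + strand: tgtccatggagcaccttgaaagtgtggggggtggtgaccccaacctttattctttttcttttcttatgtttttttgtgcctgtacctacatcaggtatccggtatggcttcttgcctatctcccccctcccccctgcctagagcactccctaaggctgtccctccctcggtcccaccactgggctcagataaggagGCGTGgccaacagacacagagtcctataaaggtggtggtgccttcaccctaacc
Ahrr, chr13:74292332-74292581, - strand: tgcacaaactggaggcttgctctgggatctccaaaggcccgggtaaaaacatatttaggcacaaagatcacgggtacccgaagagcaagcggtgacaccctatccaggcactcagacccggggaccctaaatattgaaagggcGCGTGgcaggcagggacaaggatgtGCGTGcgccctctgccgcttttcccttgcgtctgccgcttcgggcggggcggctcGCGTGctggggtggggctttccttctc
The core occurred once before *Cyp1a1* and 3 times before *Ahrr*. It is a common string: in the full window of 250 bases before to 50 after the start, 53.2% of the 11357 tested genes with a promoter sequence held it, against 59.3% of the 27 such genes called higher and 52.6% of the 19 called lower.

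Of the 10 tested AhR target genes, 2 were called higher and 0 lower, and the median log2 fold change was 0.40, beside 0.01 over all genes tested. Of those not called, *Cyp1b1*, a further AhR-induced P450, had 53.7 to 65.1 CPM at 10 µg/kg and 81.9 to 127 CPM at 30 µg/kg. Its log2 fold change was 0.75 (SE 0.23, adjusted p = 0.161, edgeR), although the groups did not overlap. *Tiparp*, a feedback inhibitor of AhR, had a log2 fold change of 0.35 (SE 0.15, adjusted p = 0.334) and *Nqo1*, a quinone reductase, one of -0.24 (SE 0.20, adjusted p = 0.66), with overlapping mice in both. The receptor gene *Ahr* was at 19.3 to 20.9 CPM at 10 µg/kg and 19.3 to 24.3 CPM at 30 µg/kg. The 5 genes of the AhR complex had a median of 0.03, with 0 called.

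**Figure D2:**
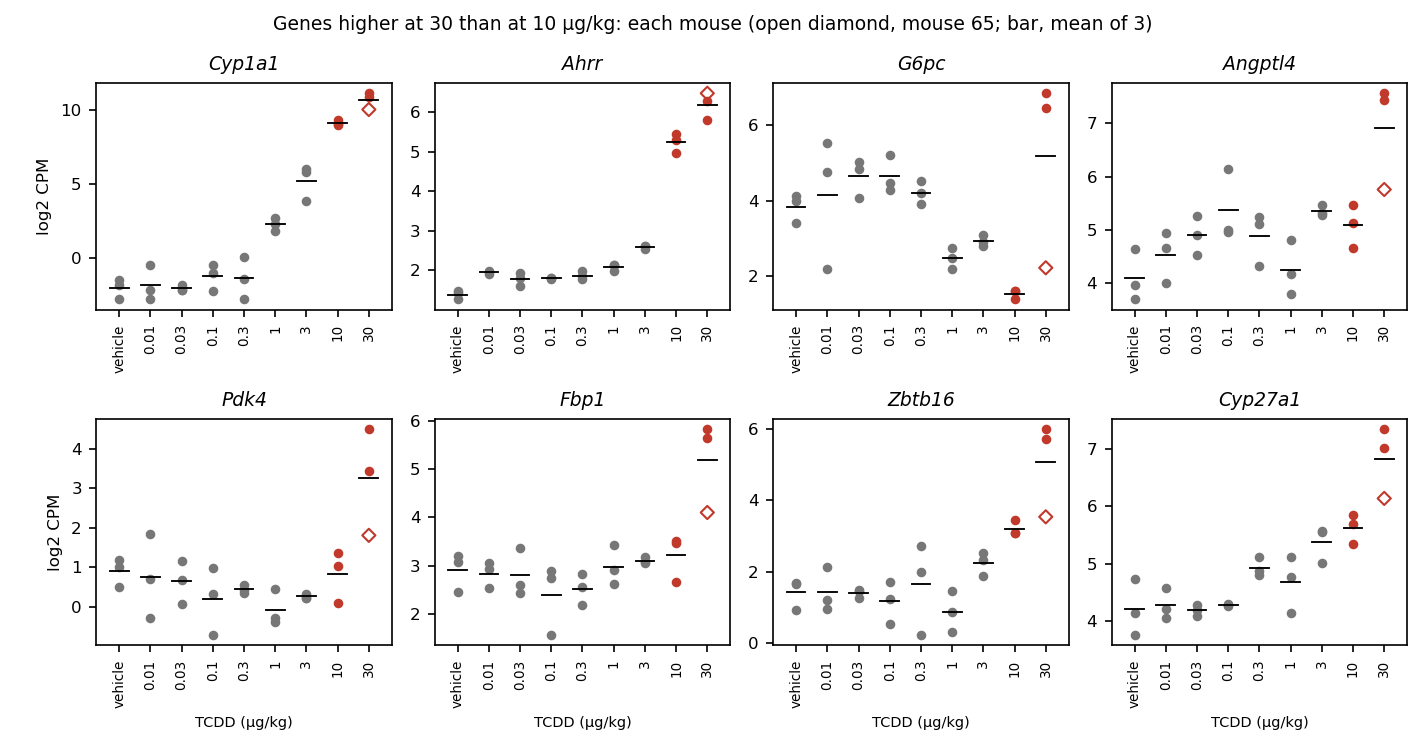
Level of 8 genes called higher (y axes, log2 CPM with a prior count of 2) in every mouse of the 9 groups (x axes, TCDD dose in µg/kg). Points are mice, bars are means of 3, red marks 10 and 30 µg/kg, and the open diamond is mouse 65. *Cyp1a1* climbed over several doses, *G6pc* was lowest at 10 µg/kg, and mouse 65 lay below mice 67 and 68 in 7 of the 8 panels, *Ahrr* being the exception.

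Genes of glucose release rose at the top dose, among them the gene with the largest rise of the comparison. *G6pc* (chr11:101367561-101377903, + strand), the catalytic subunit of glucose-6-phosphatase, had 2.90, 2.90 and 2.47 CPM at 10 µg/kg and 4.51, 115 and 88.5 CPM in mice 65, 67 and 68. It rose 25.0-fold (log2 fold change 4.64, SE 0.78, adjusted p = 0.0134, edgeR). The mice at 10 µg/kg lay below each of the 21 mice at lower doses and vehicle, which ran from 4.39 to 45.9 CPM, so part of this distance is a low level at 10 µg/kg. Mouse 65 lay just above the lowest of those 21 mice and mice 67 and 68 above the highest. *Slc37a4*, the transporter that feeds glucose 6-phosphate to that enzyme, had 23.0 to 33.2 CPM at 10 µg/kg and 33.5, 85.2 and 64.2 CPM at 30 µg/kg, a 2.23-fold rise (log2 fold change 1.16, SE 0.24, adjusted p = 0.0268). Here mouse 65 lay within the range of the 24 other mice, the highest of which had 35.2 CPM. *Fbp1*, the fructose-bisphosphatase of gluconeogenesis, went from 6.19, 11.0 and 11.3 CPM to 17.0, 56.8 and 49.8 CPM, a 4.33-fold rise (log2 fold change 2.12, SE 0.36, adjusted p = 0.0134). Its 3 mice at 30 µg/kg lay above all 24 others.

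Of the 18 tested genes of gluconeogenesis and nitrogen handling, these 3 were called higher and 0 lower, with a median log2 fold change of 0.21. *Pck1*, which catalyses the committed step of gluconeogenesis, had 55.0 to 105 CPM at 10 µg/kg and 107, 374 and 268 CPM at 30 µg/kg, and did not pass (log2 fold change 1.62, SE 0.66, adjusted p = 0.303). At the other end of the list *Ass1*, a urea cycle enzyme, had a log2 fold change of -1.03 (SE 0.31, adjusted p = 0.151).

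Some genes of the list of fatty acid oxidation and ketogenesis were called higher as well. *Pdk4*, a kinase that shuts pyruvate out of oxidation, had 2.43, 1.91 and 0.925 CPM and then 3.37, 22.7 and 10.7 CPM, a 6.93-fold rise (log2 fold change 2.79, SE 0.54, adjusted p = 0.0219, edgeR). *Angptl4*, a secreted inhibitor of lipoprotein lipase, rose 3.97-fold, from 25.2 to 44.4 CPM to 54.1, 173 and 189 CPM (log2 fold change 1.99, SE 0.39, adjusted p = 0.0234). In both genes mouse 65 lay within the range of the 24 other mice, which reached 3.47 CPM of *Pdk4* and 70.5 CPM of *Angptl4*. *Acaa2*, a thiolase of mitochondrial beta-oxidation, behaved otherwise across mice. It had 37.0 to 41.2 CPM at 10 µg/kg and 61.2 to 62.8 CPM at 30 µg/kg, with mouse 65 level with the other two (log2 fold change 0.69, SE 0.13, adjusted p = 0.0196).

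Of 24 tested genes of fatty acid oxidation and ketogenesis, 4 were called higher and 0 lower, and the median was 0.24. *Ppara*, the nuclear receptor that drives many of them, was not called (log2 fold change 0.38, SE 0.12, adjusted p = 0.161), although its 3 mice lay above all 24 others. The rate-limiting carnitine transferase *Cpt1a* was at 150 to 196 CPM and 183 to 212 CPM (log2 fold change 0.20, SE 0.12, adjusted p = 0.528). Fatty acid handling genes outside the list were also called higher: *Slc27a2*, an acyl-CoA synthetase and fatty acid transporter (log2 fold change 0.71, SE 0.15), *Agpat3*, an acyltransferase of phospholipid synthesis (0.90, SE 0.12), and *Ddhd2*, a lipase (1.33, SE 0.23, adjusted p = 0.0165). In *Ddhd2*, mouse 65 had 78.1 CPM and lay within the range of the 24 other mice, which reached 108 CPM. *Mlxipl* encodes ChREBP, a carbohydrate-sensing activator of lipid synthesis genes. It was the 1 call of 16 in the fatty acid synthesis list, at 86.7 to 110 CPM and then 135, 181 and 158 CPM (log2 fold change 0.65, SE 0.14, adjusted p = 0.0361). The median of that list was -0.11, with 6 of the 16 above 0, and it was -0.56 without mouse 65. *Slc27a2*, *Agpat3*, and, among the genes that follow, *Tkfc*, *Ephx2*, *Hpgd*, *Id2* and *Mertk* were chosen for naming after their values were seen.

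Of the 14 tested glucocorticoid-responsive genes, 2 were called higher and 0 lower, with a median of 0.26. Of the 14, 13 had log2 fold changes above 0, where 8538 of all 16741 genes tested did, and the lowest was -0.97. Without mouse 65, 4 were called higher and 1 lower, beside 2.34% and 2.8% of all genes tested. *Zbtb16*, a zinc finger transcription factor, had 10.8, 8.38 and 8.33 CPM at 10 µg/kg and 11.5, 63.7 and 52.5 CPM at 30 µg/kg, a 4.63-fold rise (log2 fold change 2.21, SE 0.47, adjusted p = 0.0336). All 3 lay above the other 24 mice, mouse 65 only just. At 10 µg/kg *Zbtb16* was not called against vehicle (log2 fold change 1.80, adjusted p = 0.0571, edgeR). Its mice at 10 µg/kg nonetheless lay above all mice at lower doses and vehicle, which reached 6.46 CPM. *Tsc22d3*, known as GILZ, rose 2.86-fold, from 35.1 to 43.5 CPM to 43.8, 130 and 172 CPM (log2 fold change 1.52, SE 0.31, adjusted p = 0.0268). Mouse 65 again lay beside the 10 µg/kg mice. *Fkbp5*, a chaperone widely used as a glucocorticoid readout, had 118 to 183 CPM and then 180, 336 and 300 CPM, and did not pass (log2 fold change 0.84, SE 0.24, adjusted p = 0.134). *Sgk1*, a kinase of sodium transport, did not pass either (1.28, SE 0.43, adjusted p = 0.192).

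Among the other genes called higher, *Cyp27a1*, a mitochondrial sterol hydroxylase of bile acid synthesis, had 51.4, 40.3 and 57.3 CPM at 10 µg/kg and 70.3, 163 and 129 CPM at 30 µg/kg, above all 24 other mice. It rose 2.43-fold (log2 fold change 1.28, SE 0.25, adjusted p = 0.0234). *Lingo4*, a leucine-rich repeat membrane protein, rose 3.73-fold from 2.31 to 2.62 CPM to 4.8, 12.5 and 10.0 CPM (log2 fold change 1.90, SE 0.38, adjusted p = 0.0235). *Tkfc*, a kinase of fructose metabolism, had 171 to 209 CPM and then 194, 773 and 638 CPM, so that mouse 65 lay within the 10 µg/kg range (log2 fold change 1.49, SE 0.27). The same held for *Hpgd*, which degrades prostaglandins (1.2, SE 0.27), *Ephx2*, the soluble epoxide hydrolase (1.41, SE 0.32), *Id2*, an inhibitor of helix-loop-helix factors (1.15, SE 0.25), and *Mertk*, a receptor kinase of apoptotic cell uptake (0.72, SE 0.16).

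The epithelial oxidase that makes hydrogen peroxide at the gut surface fell at the top dose, together with its maturation factor. *Duoxa2* (chr2:122298900-122302885, + strand), the factor that brings DUOX2 to the membrane, had 57.9, 96.7 and 40.6 CPM at 10 µg/kg and 15, 11.8 and 15.4 CPM at 30 µg/kg. It fell 4.63-fold (log2 fold change -2.21, SE 0.37, adjusted p = 0.0134, edgeR). *Duox2* (chr2:122279247-122298449, - strand), the oxidase itself and the neighbouring gene, had 558, 774 and 483 CPM and then 220, 173 and 217 CPM, a 2.98-fold fall (log2 fold change -1.57, SE 0.29, adjusted p = 0.0196). In both, the 3 mice lay below all 24 others, and mouse 65 sat with mice 67 and 68. The lowest of the 21 mice at lower doses and vehicle had 43.1 CPM of *Duoxa2* and 379 CPM of *Duox2*. *Duoxa2* shares 41.1% of its stretches of 50 bases with *Duoxa1*, which overlaps it on the other strand; the strand setting of the counting is not given in the sources used here.

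These were the 2 calls among 21 tested epithelial antimicrobial and inflammatory genes, which had a median of -0.38. *Reg3g*, a lectin against Gram-positive bacteria, had 2330 to 3660 CPM at 10 µg/kg and 1480 to 2500 CPM at 30 µg/kg, and overlapped (log2 fold change -0.55, SE 0.28, adjusted p = 0.423).

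**Figure D3:**
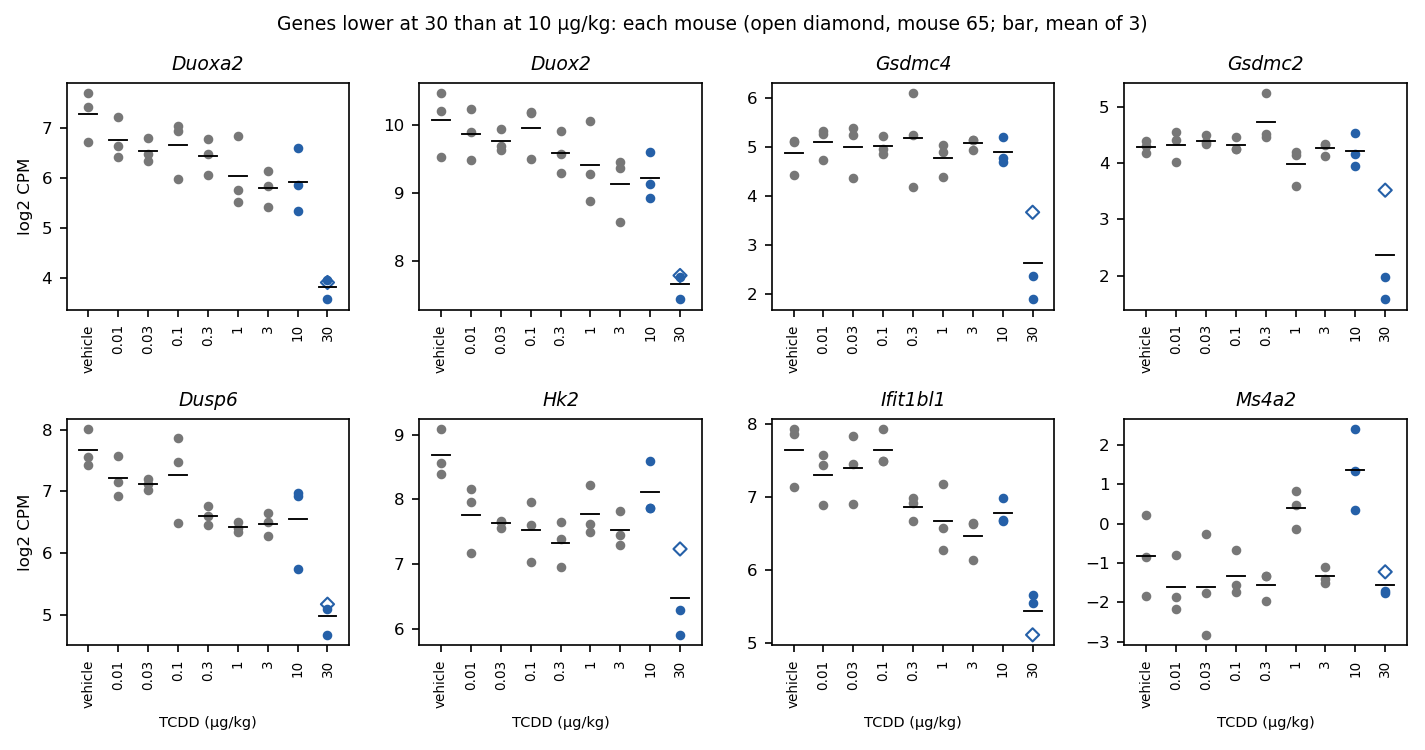
Level of 8 genes called lower (y axes, log2 CPM with a prior count of 2) in every mouse of the 9 groups (x axes, TCDD dose in µg/kg). Points are mice, bars are means of 3, blue marks 10 and 30 µg/kg, and the open diamond is mouse 65. *Gsdmc2* and *Gsdmc4* lay below all other mice at 30 µg/kg, while *Ms4a2* was high at 10 µg/kg and not outside the range of the lower doses at 30 µg/kg.

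Genes of the gasdermin C cluster on chromosome 15, whose family forms membrane pores when cleaved, were low at 30 µg/kg and not called at 10 µg/kg against vehicle. *Gsdmc4* had 37.0, 27.5 and 25.8 CPM at 10 µg/kg and 12.6, 5.03 and 3.58 CPM at 30 µg/kg, a 4.2-fold fall (log2 fold change -2.07, SE 0.41, adjusted p = 0.0232). *Gsdmc3* had 10.0, 6.86 and 7.48 CPM and then 4.08, 1.24 and 0.814 CPM (log2 fold change -1.95, SE 0.37, adjusted p = 0.0196). *Gsdmc2* had 23.1, 17.7 and 15.3 CPM and then 11.3, 3.79 and 2.85 CPM (log2 fold change -1.62, SE 0.31, adjusted p = 0.0219). In all 3 genes each mouse at 30 µg/kg lay below the 24 others, and mouse 65 was the highest of its dose. Against vehicle, their log2 fold changes at 10 µg/kg were -0.00 for *Gsdmc4*, -0.27 for *Gsdmc3* and -0.06 for *Gsdmc2*. The 3 genes share 39% to 51.3% of their stretches of 50 bases with each other or with *Gsdmc*, so reads may be split or lost among them and they are not independent readings. The fourth gene of the cluster, *Gsdmc*, was near the limit of detection at 0 to 9 counts per mouse at 30 µg/kg and did not pass. *Gsdmd*, a gasdermin outside that subfamily, was at 186 to 204 CPM and 145 to 207 CPM (log2 fold change -0.05, SE 0.15).

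*Dusp6*, the phosphatase that restrains ERK signalling and is induced by it, had 53.8, 125 and 121 CPM at 10 µg/kg and 36.1, 34.0 and 25.6 CPM at 30 µg/kg, below all other mice. It fell 3.13-fold (log2 fold change -1.65, SE 0.28, adjusted p = 0.0134, edgeR). *Phlda1*, another gene induced by growth factors, had 11.4, 28.4 and 40.8 CPM and then 10.2, 7.81 and 4.8 CPM (log2 fold change -1.81, SE 0.36, adjusted p = 0.0244). Mouse 65 lay within the range of the 24 other mice, the lowest of which had 9.78 CPM. *Phlda1* shares 29.3% of its stretches with an antisense gene. Other genes of the same signalling route, named after their values were seen, did not pass: *Dusp5* had a log2 fold change of -0.96 (SE 0.25, adjusted p = 0.0939), *Egr1* one of -0.84 (SE 0.30, adjusted p = 0.216) and *Spry2* one of -0.17 (SE 0.16, adjusted p = 0.692), and *Spry4*, *Etv5* and *Dusp4* had adjusted p of 0.543, 0.388 and 0.56. *Hk2*, a hexokinase that starts glycolysis, had 233, 386 and 234 CPM and then 151, 60.2 and 78.6 CPM, a 2.95-fold fall (log2 fold change -1.56, SE 0.32, adjusted p = 0.0247). Mouse 65 lay within the range of the 24 other mice, the lowest of which had 124 CPM. *Hk2* was the 1 call among 23 genes of glycolysis and the hypoxia response, whose median was -0.15.

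Interferon-stimulated genes were lower at 30 than at 10 µg/kg as a list, with few single calls. Of 28 tested, 3 were called lower and 0 higher. All 28 log2 fold changes were below 0, with a median of -0.67, while 8538 of all 16741 genes tested lay above 0. The interferon list had a median of 0.43 at 10 µg/kg against vehicle and of -0.12 at 30 µg/kg against vehicle. By median it thus stood highest at 10 µg/kg among vehicle and these 2 doses, the only groups compared. The called members differed at 10 µg/kg against vehicle: *Ifit2* had -0.51, *Zbp1* -0.47 and *Bst2* 0.32, none of them called. *Ifit2*, which blocks viral RNA translation, had 8.70, 9.90 and 12.9 CPM at 10 µg/kg and 3.94, 3.09 and 4.8 CPM at 30 µg/kg (log2 fold change -1.41, SE 0.32, adjusted p = 0.0483). *Zbp1*, a sensor of Z-form nucleic acid, had 61.2, 60.4 and 70.0 CPM and then 31.9, 22.6 and 29.5 CPM (log2 fold change -1.19, SE 0.24, adjusted p = 0.0268). *Bst2*, the membrane protein tetherin, had 8.39, 7.32 and 12 CPM and then 5.23, 4.56 and 5.21 CPM (log2 fold change -0.88, SE 0.16, adjusted p = 0.0196). *Zbp1* and *Bst2* lay below all 24 other mice, *Ifit2* did not. In other members the 2 doses overlapped. *Rsad2*, an antiviral enzyme, had 23.4 to 73.6 CPM at 10 µg/kg and 7.59, 47.6 and 13.2 CPM at 30 µg/kg (adjusted p = 0.414). Here mouse 65 was the lowest of its dose, and without it the list median was -0.49.

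Interferon-related genes outside the list were called lower too. *Ifit1bl1*, a relative of *Ifit1*, had 103, 102 and 127 CPM and then 34.5, 46.6 and 50.6 CPM, below all other mice (log2 fold change -1.34, SE 0.26, adjusted p = 0.0217). *Socs1*, the inhibitor that interferon signalling induces against itself, had 11.3, 15.2 and 12.6 CPM and then 4.66, 4.72 and 5.54 CPM (log2 fold change -1.39, SE 0.28, adjusted p = 0.0235). *Irgm1*, an interferon-induced GTPase, had 54.1 to 61.5 CPM and then 31.5 to 35.5 CPM (log2 fold change -0.79, SE 0.16, adjusted p = 0.0268). In *Socs1* and *Irgm1*, the 3 mice at 30 µg/kg were within a narrow range of each other. *Rnf213*, a large ubiquitin ligase, had 702 to 1130 CPM and then 541 to 577 CPM (log2 fold change -0.72, SE 0.15, adjusted p = 0.0244). *Irgm1* and *Rnf213* were chosen for naming after their values were seen. At 10 µg/kg against vehicle, *Ifit1bl1* was already called lower (log2 fold change -0.89). There *Socs1* had -0.19, *Irgm1* 0.31 and *Rnf213* 0.14, none of them called.

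Stretches of 50 bases before *Socs1* and *Bst2* are shown because they hold the interferon-stimulated response element GAAANNGAAA (capitals, 5′ to 3′ on the gene's strand, RefSeq, GRCm38.p6), here as 2 overlapping matches each.
Socs1, chr16:10785590-10785639, - strand: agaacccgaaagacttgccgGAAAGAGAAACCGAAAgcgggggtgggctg
Bst2, chr8:71537573-71537622, - strand: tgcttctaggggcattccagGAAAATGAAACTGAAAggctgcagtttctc
The element, searched on both strands after these calls were seen, occurred in 4 of the 19 promoters of genes called lower (21.1%), in 0 of the 27 of genes called higher, and in 3.89% of the 11357 promoters of all genes tested. The 4 genes were *Bst2*, *Ifit1bl1*, *Irgm1* and *Socs1*. Of 20 interferon-stimulated genes of the list with a promoter sequence, 13 held it.

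Of 6 mast cell markers, 1 was called lower at 30 µg/kg. *Ms4a2*, the beta chain of the high-affinity IgE receptor, had 5.17, 1.12 and 2.39 CPM at 10 µg/kg (17 to 66 counts) and 0.286, 0.155 and 0.163 CPM at 30 µg/kg (2 to 4 counts). Its fitted log2 fold change was -3.76 (SE 0.74, adjusted p = 0.0231, edgeR), a value that so few counts leave imprecise. Against vehicle it was called higher at 10 µg/kg (log2 fold change 2.44, adjusted p = 0.0297) and not called at 30 µg/kg (-1.33, adjusted p = 0.313). The median of the 6 markers was -2.45. Against vehicle the median was 2.38 at 10 µg/kg and -0.05 at 30 µg/kg. Of the 6, 4 were called higher against vehicle at 10 µg/kg and 1 at 30 µg/kg. Over all genes tested, 2.53% and 9.4% were called in either direction at those doses. Without mouse 65 the median was -3.96, and 5 markers were called lower, where 2.8% of all genes tested were. The list summed to 72.5 to 206 CPM at 10 µg/kg and 47.1 to 79.1 CPM at 30 µg/kg, and the doses overlapped. The proteases *Mcpt1* and *Mcpt2* and the carboxypeptidase *Cpa3* had log2 fold changes of -2.58 (adjusted p = 0.131), -2.49 (adjusted p = 0.161) and -2.41 (adjusted p = 0.13). *Mcpt1* had 104, 21.4 and 42.2 CPM and then 20.3, 6.26 and 0.977 CPM. *Kit*, which other gut cells also express, was at 38.0 to 52.3 CPM and 45.3 to 48.5 CPM. *Il1rl1*, the receptor for the protein encoded by *Il33* and named after its values were seen, had 6.98, 4.22 and 3.70 CPM and then 1.5, 1.7 and 0.896 CPM (log2 fold change -1.85, SE 0.34, adjusted p = 0.0196). *Cwh43*, a gene of lipid anchor remodelling, was the other gene called in opposite directions at 10 µg/kg against vehicle and at 30 against 10 µg/kg, on 1 to 2 counts per mouse at 30 µg/kg.

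No tuft cell marker was called between the doses. All 8 tested had log2 fold changes below 0, with a median of -1.02, while 8538 of all 16741 genes tested lay above 0. At 10 µg/kg against vehicle 6 were called higher, where 2.53% of all genes tested were called in either direction. At 30 µg/kg against vehicle 0 were called higher, where 9.4% of all genes tested were called in either direction. *Dclk1*, a kinase that marks tuft cells, had 57.3, 29.0 and 64.7 CPM at 10 µg/kg and 26.6, 28.2 and 19.5 CPM at 30 µg/kg (log2 fold change -1.02, SE 0.25, adjusted p = 0.0701). *Trpm5*, their taste cation channel, had a log2 fold change of -1.12 (SE 0.27, adjusted p = 0.067). Enteroendocrine markers summed to 224 to 257 CPM at 10 µg/kg and 302 to 366 CPM at 30 µg/kg, with 0 of 14 called. *Chga*, their granule protein, had 31.9 to 36.9 CPM and then 46.0 to 52.9 CPM (log2 fold change 0.58, SE 0.23, adjusted p = 0.29). *Itgam*, an integrin of myeloid cells, was the 1 call among 12 tested macrophage, dendritic cell and neutrophil markers, at 16.0 to 25.6 CPM and then 7.50 to 13.8 CPM (log2 fold change -0.99, SE 0.19, adjusted p = 0.0228). It was already called lower at 10 µg/kg against vehicle (log2 fold change -0.79, adjusted p = 0.0132, edgeR). It shares 66.3% of its stretches with another annotated gene. The whole list summed to 90 to 140 CPM and 97.6 to 129 CPM, with *S100a8* at 0 at both doses. The plasma cell gene *Jchain* overlapped, at 86.2 to 131 CPM and 41.2 to 106 CPM (adjusted p = 0.664).

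**Figure D4:**
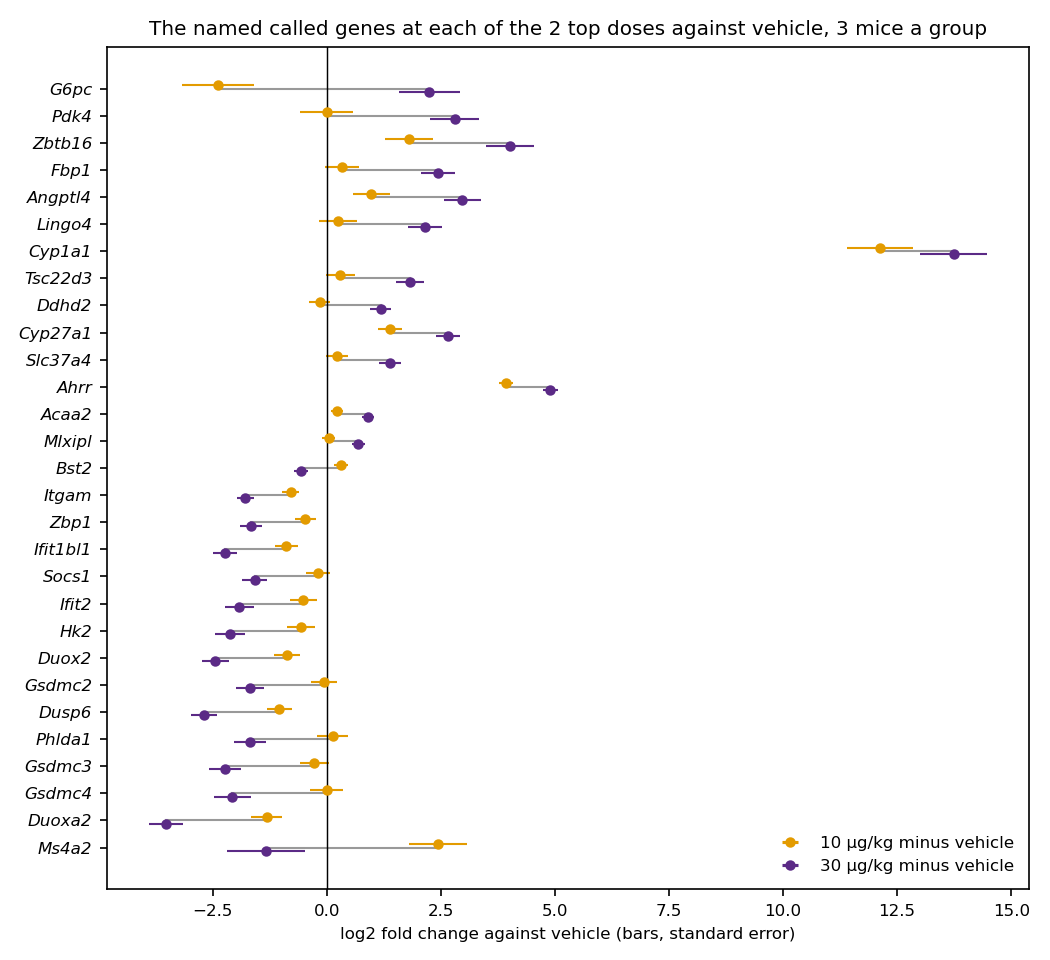
Log2 fold change against vehicle (x axis, edgeR, bars are standard errors) of 29 called genes that the naming rule selected, at 10 µg/kg (orange) and 30 µg/kg (purple), 3 mice a group. The 2 comparisons share the vehicle mice. *Cyp1a1* and *Ahrr* were far from 0 at both doses, *Gsdmc2* to *Gsdmc4* and *Phlda1* were near 0 at 10 µg/kg, and *Ms4a2* and *G6pc* lay on opposite sides of 0.

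Set beside vehicle, 423 genes were called at 10 µg/kg (2.53% of those tested) and 1574 at 30 µg/kg (9.4%); these comparisons share mice with each other and with that of 30 against 10 µg/kg, and since the vehicle libraries were of the first use of the indexes, the use of the index and the dose are confounded in both. Of the 57 genes, 44 were not called at 10 µg/kg against vehicle, and 38 of these were called at 30 µg/kg against vehicle in the direction they moved between the doses. They included *Fbp1* (log2 fold change 0.33 at 10 and 2.44 at 30 µg/kg), *Pdk4* (0.00 and 2.80), *Hk2* (-0.56 and -2.12), *Socs1* (-0.19 and -1.58) and *Zbp1* (-0.47 and -1.66). A further 11 were called at 10 µg/kg in the same direction, 7 higher and 4 lower. *Cyp1a1* (12.12 and 13.74), *Ahrr* (3.93 and 4.90), *Cyp27a1* (1.38 and 2.66), *Agpat3* (0.90 and 1.80), *Duoxa2* (-1.31 and -3.52) and *Dusp6* (-1.04 and -2.69) were among them. The 6 genes called at neither dose against vehicle included *Bst2* (0.32 and -0.56) and *Irgm1* (0.31 and -0.48).

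Genes of the clock and of bile acid transport did not pass between these doses. The clock lists had 0 calls among 6 activators and 13 repressors and outputs. Against vehicle, 10 of the 13 were called higher and 1 lower at 10 µg/kg, and the same numbers at 30 µg/kg. Over all genes tested, 2.53% and 9.4% were called in either direction at those doses. *Dbp*, an output of the clock, had a mean of 42.1 CPM (SD 12.9, n = 3) at the lower dose and 41.4 CPM (SD 13.4, n = 3) at the higher, and the 95% interval of its log2 fold change was -1.31 to 1.26. *Nr1d1*, a clock repressor, overlapped (log2 fold change -0.50, 95% interval -1.64 to 0.65), as did *Arntl*, an activator (-0.28, -1.03 to 0.46). *Per1* did not overlap, with 60.5 to 69.4 CPM and then 75.8 to 105 CPM (log2 fold change 0.49, 95% interval -0.10 to 1.08, adjusted p = 0.498).

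Of 9 tested genes of FXR and bile acid transport, 0 were called. *Fgf15*, the ileal hormone that the bile acid receptor FXR induces, had 23.1 to 33.9 CPM at 10 µg/kg and lay below all 24 other mice at 30 µg/kg, with mouse 65 far above the other two (log2 fold change -2.21, SE 0.63, adjusted p = 0.131). Without mouse 65 the value was -4.06 (adjusted p = 0.00238). Against vehicle, *Fgf15* had -1.04 at 10 µg/kg (adjusted p = 0.346, edgeR) and -3.24 at 30 µg/kg (adjusted p = 0.00113). *Fabp6*, the ileal bile acid binding protein, had 1310, 1530 and 1620 CPM and then 1490, 680 and 474 CPM (log2 fold change -0.75, SE 0.25, adjusted p = 0.195), and -1.40 without mouse 65 (adjusted p = 7.78e-05). Against vehicle, *Fabp6* had -0.19 at 10 µg/kg (adjusted p = 0.764, edgeR) and -0.94 at 30 µg/kg (adjusted p = 0.012). The importer *Slc10a2* (0.28, 95% interval -0.21 to 0.77), the exporter subunits *Slc51a* (-0.23, -0.44 to -0.01) and *Slc51b* (-0.24, -0.52 to 0.03) and the receptor gene *Nr1h4* (0.02, -0.30 to 0.34) were not called. In the list of sterol synthesis and uptake, 0 of 24 genes were called.

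**Figure D5:**
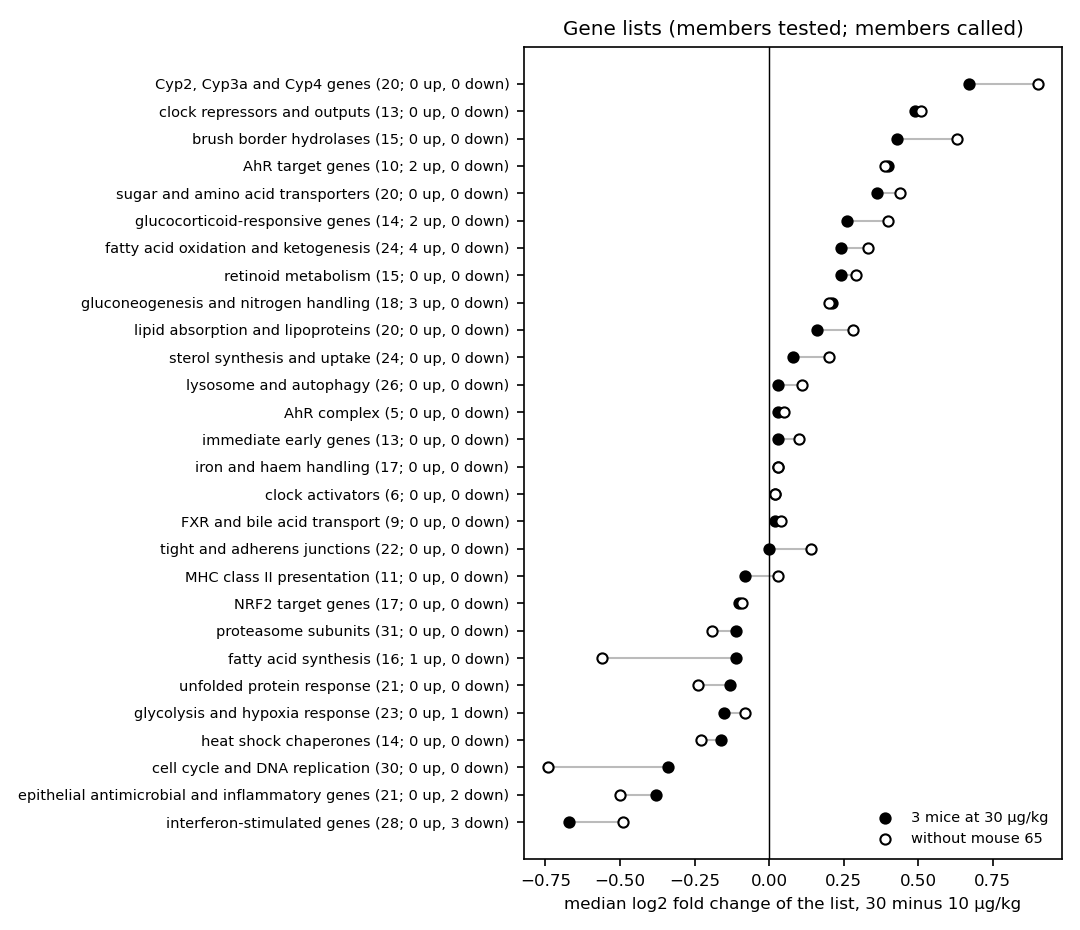
Median log2 fold change (x axis, 30 minus 10 µg/kg) of the members tested in each of 28 gene lists (y axis), with the 3 mice at 30 µg/kg (filled) and without mouse 65 (open). In brackets are the number of members tested and called. The cytochrome P450 list (0.67) and interferon-stimulated genes (-0.67) had the medians farthest from 0 with all mice, and fatty acid synthesis and cell cycle genes moved most when mouse 65 was left out.

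Without mouse 65 calls rose across all genes tested, to 2.34% higher and 2.8% lower from 0.197% and 0.143% with it, and the median of all genes was -0.04. The counts of lists that follow are to be read beside these shares. Of 30 cell cycle and DNA replication genes, 0 were called with it and 1 was called higher and 16 lower without it, and the median went from -0.34 to -0.74. *Mki67*, a marker of dividing cells, had 214, 213 and 171 CPM at 10 µg/kg and 234, 116 and 128 CPM at 30 µg/kg (log2 fold change -0.32, SE 0.20, adjusted p = 0.533), and -0.74 without mouse 65 (adjusted p = 0.0116). Of 15 brush border hydrolases, 0 were called with it and 7 higher without it, with medians of 0.43 and 0.63. Mouse 65 also had the highest smooth muscle sum of its dose. Its sum of enterocyte markers was the lowest, 12800 CPM against 21500 and 20300 CPM. Markers of jejunal enterocytes summed to 88.9 CPM in mouse 65 and to 400 and 224 CPM in the other mice at 30 µg/kg. At 10 µg/kg they summed to 96.9 to 152 CPM. Markers of ileal enterocytes were also lowest in mouse 65, at 4420 CPM against 6740 and 5910 CPM. With mouse 65 included, the list medians were 0.84 (jejunal) and 0.01 (ileal), with 0 genes called in either. The part of tissue sampling in these differences, and of position along the gut in the called genes, was not tested. *Acta2*, a smooth muscle actin, had 29.7, 56.0 and 6.56 CPM at 10 µg/kg and 45.5, 9.44 and 5.21 CPM at 30 µg/kg (adjusted p = 0.793). With the smooth muscle score as a covariate, 30 genes were called, 12 higher and 18 lower, and 29 of them were among the 57.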

How the data were processed

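The authors trimmed reads, aligned them to GRCm38 and deposited, for each mouse, a table of raw counts of reads by Ensembl gene ID, not normalized. The submitters' processing notes list FastQC 0.11.3, Trimmomatic 0.33, TopHat2 2.1.0, SAMtools 1.2.0, HTSeq 0.6.1 and DESeq. The counting options are not given in the sources used here, and reads shared between genes may be lost. Reads matching no feature and other summary rows were removed. In the 6 mice, reads matching no feature were 45.9% to 49.5% of the sum of reads on genes, matching no feature or ambiguous. GENCODE M21 named 45143 of 46078 genes.

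Counts were tested with edgeR 4.0.16 in R 4.3.3: filterByExpr defaults left 16741 genes, followed by TMM, a quasi-likelihood fit of 27 mice in 9 groups, and the contrast of 30 minus 10 µg/kg. Calls needed a Benjamini-Hochberg adjusted p no higher than 0.05 and a change of 1.5-fold or more. The adjusted p stands in for the study's P1(t), which could not be recomputed. Standard errors are the log2 fold change divided by the square root of F. CPM values use TMM-scaled library sizes.

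Named genes are the 12 largest non-overlapping calls each way at 5 CPM or more, called members of 48 gene lists (28 pathway, 20 marker, at most 6 each), and fixed genes of AhR, bile acid, clock and cell type interest; some genes so selected are not reported here. Other list members, the *Gsdmc* and growth factor feedback genes, the interferon element and the values without mouse 65 were added after the data were seen. The members, lists and tests were chosen with earlier results of these data known. Lists are described by counts and medians, without a test. Library indexes of both doses were in their second use. The 6 pairs of mice of equal dose differed by 15.74 to 83.08 chi-square units per degree of freedom, so none is a repeat. The fit was tested on simulated data in which mice of a dose shared a common expected level for each gene. Those data held no deviant mouse, so that test does not bear on how the calls depend on mouse 65. Alternatives were DESeq2 1.42.0, limma 3.58.1, other scalings, filters and mice. Depth was 12.95 to 14.92 M counts per mouse, so genes such as *Ms4a2*, with 2 to 4 counts at 30 µg/kg, carry large counting error.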

Additional observations from a re-analysis of the deposited data

How the results depend on the processing

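The 57 calls rest on a spread shared by 27 mice. With only the 6 mice compared, 0 genes were called by edgeR (965 at an unadjusted p under 0.05, lowest adjusted p 0.109). With the 11 mice of the second index use it was 0 (1506, lowest 0.065), and with glmTreat against a fold of 1.5 it was 0 (300, lowest 0.127); the higher, lower and outside-range counts were also 0 in each. DESeq2 called 152, of which 53 were among the 57, with 79 higher, 73 lower and 50 outside the range. Without a filter on low counts 172 were called, 77 higher, 95 lower and 50 outside. Library size only gave 21 higher and 45 lower, and the smooth muscle score as a covariate gave 30, 12 higher and 19 outside the range. Leaving out each mouse in turn gave 2 to 877 calls, 2 to 399 higher, 0 to 478 lower and 2 to 610 outside the range, with 877 without mouse 65, 3 without mouse 67 and 2 without mouse 68; without mice 57, 58 and 59 there were 31, 28 and 34. The cause was not tested. Quantile scaling (limma voom) gave 40, and upper quartile, index use, clock score, 10 counts in every mouse and no fold minimum gave 49 to 69.

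Among the genes selected by the naming rule, 0 of the 29 called ones changed sign, and sign changes were in 3 that were not called: *Nr1h4* at -0.071 (library size), -0.009 (no filter), -0.062 (smooth muscle score), -0.045 (quantile), and from -0.036 to 0.085 over mice left out; *Dbp* at 0.028 (smooth muscle score) and from -0.295 to 0.239 over mice left out; and *Acta2* at 0.111 (smooth muscle score) and from -2.102 to 0.141 over mice left out. No paired analysis was possible because mouse numbers are unique to each mouse and replicate numbers follow accession order. Single genes under 10 counts per mouse are limited by depth.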

Other observations

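Of 20 tested *Cyp2*, *Cyp3a* and *Cyp4* genes, 0 were called with the 3 mice and 11 were called higher without mouse 65, with medians of 0.67 and 0.90; over all genes tested the shares called higher were 0.197% and 2.34%. *Cyp2b10*, a P450 induced through the receptor CAR, had 3.61, 5.94 and 6.71 CPM at 10 µg/kg and 7.31, 57.5 and 30.4 CPM in mice 65, 67 and 68 (log2 fold change 2.54, SE 0.76, adjusted p = 0.147, edgeR). *Cyp4v3*, a fatty acid hydroxylase, had 149 to 240 CPM and then 150, 537 and 469 CPM (1.06, SE 0.31, adjusted p = 0.146). Of 20 sugar and amino acid transporters, 0 were called with the 3 mice and 8 higher without mouse 65, beside the same shares. *Slc2a2*, a sugar exporter of the basolateral membrane, had 23.4, 40.3 and 55.9 CPM and then 79.0, 415 and 231 CPM, above all 24 other mice (2.60, SE 0.66, adjusted p = 0.0847). *Slc2a5*, the fructose transporter, had 80.4 to 115 CPM and then 92.0, 478 and 296 CPM (1.64, SE 0.46, adjusted p = 0.126).

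*Fasn*, the fatty acid synthase, had 214 to 288 CPM at 10 µg/kg and 546 CPM in mouse 65, against 117 and 140 CPM in mice 67 and 68 (log2 fold change 0.15, SE 0.40, adjusted p = 0.918). *Scd1*, a desaturase, had 94.0 to 376 CPM and then 1010, 43.1 and 24.6 CPM (0.93, SE 1.03, adjusted p = 0.756). Without mouse 65, 6 of the 16 genes of the list were called lower and 2 higher, beside 2.8% and 2.34% of all genes tested. The adipocyte markers summed to 83.7 CPM in mouse 65 and to 37.2 and 22.6 CPM in mice 67 and 68. *Scd1* is expressed in adipocytes as well as in epithelium, and the part of adipose tissue in its level was not tested.

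Of 12 tested stem cell markers of the crypt, all had log2 fold changes below 0 (median -0.35), with 0 called. Of all 16741 genes tested, 8538 lay above 0. Without mouse 65, 4 of the markers were called lower, where 2.8% of all genes tested were. *Axin2*, a target of Wnt signalling, lay below all 24 other mice, at 138 to 161 CPM at 10 µg/kg and 116, 83.8 and 84.6 CPM at 30 µg/kg (log2 fold change -0.63, SE 0.15, adjusted p = 0.0669).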
